A study of Mus musculus and Rattus norvegicus with 12 samples.

Results

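The genes of the proteasome were taken from both count tables by symbol, as every name that begins with Psm, a letter from a to g and a number, with case ignored and pseudogene names that hold -ps left out. The rule found 50 of 54087 symbols in the mouse table and 49 of 28909 in the rat table, with 48 in both and 51 in either. The rule left out 4 pseudogene names of the mouse table. Of the members, 49 mouse and 47 rat genes passed the filter on low counts. The mouse Psmb11, and the rat Psma8 and Psmb11, did not.

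RNA was sequenced from 12 libraries in 4 groups of 3. The cKO hearts came from mice labelled MCM+ Jmjd4f/f with myh6 cre, in which a tamoxifen-induced recombinase is driven by a cardiomyocyte promoter. Their controls were Jmjd4f/f (flox) hearts without that transgene, so the recombinase and the loss of Jmjd4 cannot be told apart. Both groups had received tamoxifen, and heart apex was taken on day 14. The siJmjd4 and siNC groups were neonatal rat ventricular cardiomyocytes (NRVCs) from 1-day-old Sprague-Dawley rats, treated with siRNA against Jmjd4 or a control siRNA for 48 h. The labels do not say whether NRVC replicates came from separate isolations, so their p-values measure the spread between these samples, which may be technical. The labels used give no strain, sex or age of the mice.

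The proteasome is the large protease that degrades proteins tagged with ubiquitin. Its barrel, the 20S core, has outer rings of alpha subunits and inner rings of beta subunits, of which Psmb5, Psmb6 and Psmb7 cut the substrate. The 19S cap recognises, strips and unfolds ubiquitin-tagged proteins. Interferon and inflammatory signals induce Psmb8, Psmb9 and Psmb10, which take the places of Psmb5, Psmb6 and Psmb7 to form the immunoproteasome, and the cap subunits Psme1 and Psme2, which open the barrel. The immunoproteasome is abundant in leukocytes and supplies peptides for presentation on MHC class I. In heart muscle the proteasome clears damaged and misfolded proteins, and the immunoproteasome has been studied in inflamed hearts.

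The 51 symbols were sorted by role. In the mouse, 31 were constitutive subunits of the 20S core and 19S cap, 5 were immunoproteasome genes, and 10 were assembly chaperones, other activators or an inhibitor. The rat table held 30 constitutive subunits, because it has no row named Psma3, and held the related symbol Psma3l. Set apart were the testis subunit Psma8, the thymus subunit Psmb11, the retrocopy Psme2b of the mouse, which can share reads with Psme2, and Psmc3ip, a cofactor of meiotic recombination that is no subunit.

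RefSeq promoters of GRCm38.p6 are shown for the members on which the comparisons turn, as 300 bases around the transcription start. The pairs Psmb5 with Psmb8 and Psmb6 with Psmb9 are constitutive and interferon-inducible counterparts, and Psme4 is the member with the largest lower value in cKO hearts once 1 control library is left out. Capitals mark matches, on either strand, to TGACNNNGC, a pattern of elements bound by NRF1 and NRF2, or to CCAAT. Psmb5 lies on the minus strand at chr14:54617946-54618245, Psmb8 on the plus strand at chr17:34197945-34198244, Psmb6 on the plus strand at chr11:70525107-70525406, Psmb9 on the minus strand at chr17:34187281-34187580, and Psme4 on the plus strand at chr11:30771525-30771824.
Psmb5: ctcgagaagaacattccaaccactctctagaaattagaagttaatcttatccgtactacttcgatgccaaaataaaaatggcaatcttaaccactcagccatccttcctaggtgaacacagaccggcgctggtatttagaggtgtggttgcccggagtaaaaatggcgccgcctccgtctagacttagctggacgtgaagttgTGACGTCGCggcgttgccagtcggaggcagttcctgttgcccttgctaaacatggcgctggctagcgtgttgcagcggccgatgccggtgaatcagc
Psmb8: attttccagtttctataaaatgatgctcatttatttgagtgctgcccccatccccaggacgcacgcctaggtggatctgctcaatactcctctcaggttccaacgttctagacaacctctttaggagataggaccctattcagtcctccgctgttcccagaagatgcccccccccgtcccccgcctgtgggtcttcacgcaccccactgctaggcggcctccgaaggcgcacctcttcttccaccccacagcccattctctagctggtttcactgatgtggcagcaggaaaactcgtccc
Psmb6: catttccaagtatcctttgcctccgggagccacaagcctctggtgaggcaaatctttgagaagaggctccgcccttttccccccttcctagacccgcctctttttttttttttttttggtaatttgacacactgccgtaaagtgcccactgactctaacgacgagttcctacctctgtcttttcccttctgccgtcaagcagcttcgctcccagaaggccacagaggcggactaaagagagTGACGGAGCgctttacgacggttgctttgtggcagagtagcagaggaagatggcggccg
Psmb9: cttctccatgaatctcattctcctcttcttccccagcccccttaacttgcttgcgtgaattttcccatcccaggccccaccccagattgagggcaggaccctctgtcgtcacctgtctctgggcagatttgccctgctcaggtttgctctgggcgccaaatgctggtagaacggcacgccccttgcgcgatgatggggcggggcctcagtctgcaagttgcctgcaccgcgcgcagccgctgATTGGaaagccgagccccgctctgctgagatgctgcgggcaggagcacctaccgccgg
Psme4: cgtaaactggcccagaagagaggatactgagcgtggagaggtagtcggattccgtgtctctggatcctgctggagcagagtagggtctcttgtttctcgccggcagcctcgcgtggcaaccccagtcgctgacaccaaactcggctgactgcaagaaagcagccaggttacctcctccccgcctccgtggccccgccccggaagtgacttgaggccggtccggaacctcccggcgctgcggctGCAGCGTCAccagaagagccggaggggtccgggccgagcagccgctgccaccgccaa

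The TGACNNNGC pattern stood in the promoters of Psmb5 and Psmb6 and not in those of Psmb8 and Psmb9. It was found in 6 of 45 member promoters, of 42 genes, which is 13.3%, against 12.4% of all 32851 promoters. The other genes with it were Psmc6, Psmd12, Psmd9 and Psme4. CCAAT or its complement stood in 33.3% of member promoters, against 37.4% of all. A pattern of interferon response elements, made of 2 GAAA runs with 2 bases between them, on either strand, stood in 11.1% of member promoters, against 3.44% of all, and its holders were Psmb3, Psmd4, Psmd9, Psme1 and Psmg4. A match describes these letters in this window and no more.

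Depth ranged from 57174654 to 82187009 counts per library. One control library of each system stood apart. Flox replicate 3 had a TMM factor of 0.4412, 41.72% of its counts in mitochondrial genes, against at most 24.08% in the other hearts, and 1485 tested genes at 0. SiNC replicate 3 had a TMM factor of 0.8274 and 461 tested genes at 0. In both, levels fell with transcript length relative to the rest of their own group (Spearman rho across genes -0.647 and -0.473). Levels in cKO replicate 2 and siJmjd4 replicate 1 also fell with length relative to the rest of their own groups (-0.55 and -0.352). Results are therefore given with and without these libraries. Jmjd4 itself had 8.95, 4.92 and 9.63 CPM in cKO hearts, against 19.03, 8.04 and 16.9 CPM in flox hearts, so the groups overlapped and the lower mean did not pass the test (edgeR quasi-likelihood, adjusted p = 0.397). It had 3.58, 3.43 and 3.52 CPM in siJmjd4 NRVCs, against 3.46, 4.40 and 0.982 CPM in siNC NRVCs, so the knockdown is not seen in these counts. The 8 cardiomyocyte markers summed to between 33866 and 35494 CPM in cKO hearts, against between 42661 and 62399 CPM in flox hearts, and to between 14936 and 18110 CPM with siJmjd4, against between 18551 and 26332 CPM with siNC. Myh7, the myosin heavy chain that predominates in fetal mouse ventricle, went against that sum in hearts, with 8471, 4032 and 3657 CPM in cKO hearts, against 475, 494 and 78.3 CPM in flox hearts (3.95 ± 0.85 on the log2 scale, adjusted p = 0.101). Myh7 was called higher when flox replicate 3 was left out (3.48, adjusted p = 0.0124). Pln, another of the 8 markers, was called lower in that fit (-2.13, adjusted p = 0.0108). In NRVCs, labelled cardiomyocytes, the 6 fibroblast markers summed to more than these, between 40604 and 47426 CPM with siJmjd4, against between 34975 and 41984 CPM with siNC. Of the 6 endothelial and 5 smooth muscle and pericyte markers, 0 were called in either system, and so were 0 of the listed genes of the other cell types in NRVCs.

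The constitutive subunits were set apart most by 1 control library. Their geometric mean was 63.7, 97.8 and 56.3 CPM in cKO hearts, against 59.5, 61.4 and 163 CPM in flox hearts, where CPM are counts scaled to a common library size by TMM. Only flox replicate 3 lay above every cKO heart, and the other flox hearts lay within the cKO range. In NRVCs it was 115, 110 and 108 CPM with siJmjd4, against 120, 125 and 180 CPM with siNC. There, every siJmjd4 library lay below every siNC library.

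Per kilobase of transcript, the catalytic subunits were the most abundant members in flox replicates 1 and 2. Psmb7, the trypsin-like subunit, averaged 100.3 CPM per kb, Psmb5, the chymotrypsin-like subunit, 92.0, and Psmb6, the caspase-like subunit, 83.6. On this scale Psmb8 averaged 5.62, Psmb9 5.18 and Psmb10 17.6 CPM per kb, and the assembly chaperones ranged between 3.28 for Psmd5 and 14.7 for Psmg2. Mouse Psmb11 had no count in any heart, and Psma8 lay at 0.559 CPM or less in each heart.

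No proteasome gene was called in cKO hearts against flox hearts with all 6 libraries, among 49 tested (edgeR quasi-likelihood test, Benjamini-Hochberg adjustment over 18094 genes, called under 0.05). Over all genes, 0.37% were called higher and 0.138% lower. No member had an unadjusted p under 0.05 either, where 2715 of the 18094 genes did, and DESeq2's Wald test called 0. The median log2 fold change was -0.43 over members, with 10 values above 0 and 39 below, beside 0.00 over all genes. It was -0.48 over the 31 constitutive subunits and 0.18 over the 5 immunoproteasome genes.

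Without flox replicate 3 the sign of most members turned. Of 49 values 40 were then above 0, the member median was 0.26, and the constitutive median was 0.24, beside 0.02 over all genes. One member, Psmb8, was called higher and 0 lower, where 4.26% of all genes were called higher and 2.93% lower. Without flox replicate 3 and cKO replicate 2, Psmb8, Psmb10 and Psmd8 were called higher and Psmb7 and Psme4 lower, where 9.54% of all genes were called higher and 9.53% lower.

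**Figure D1:**
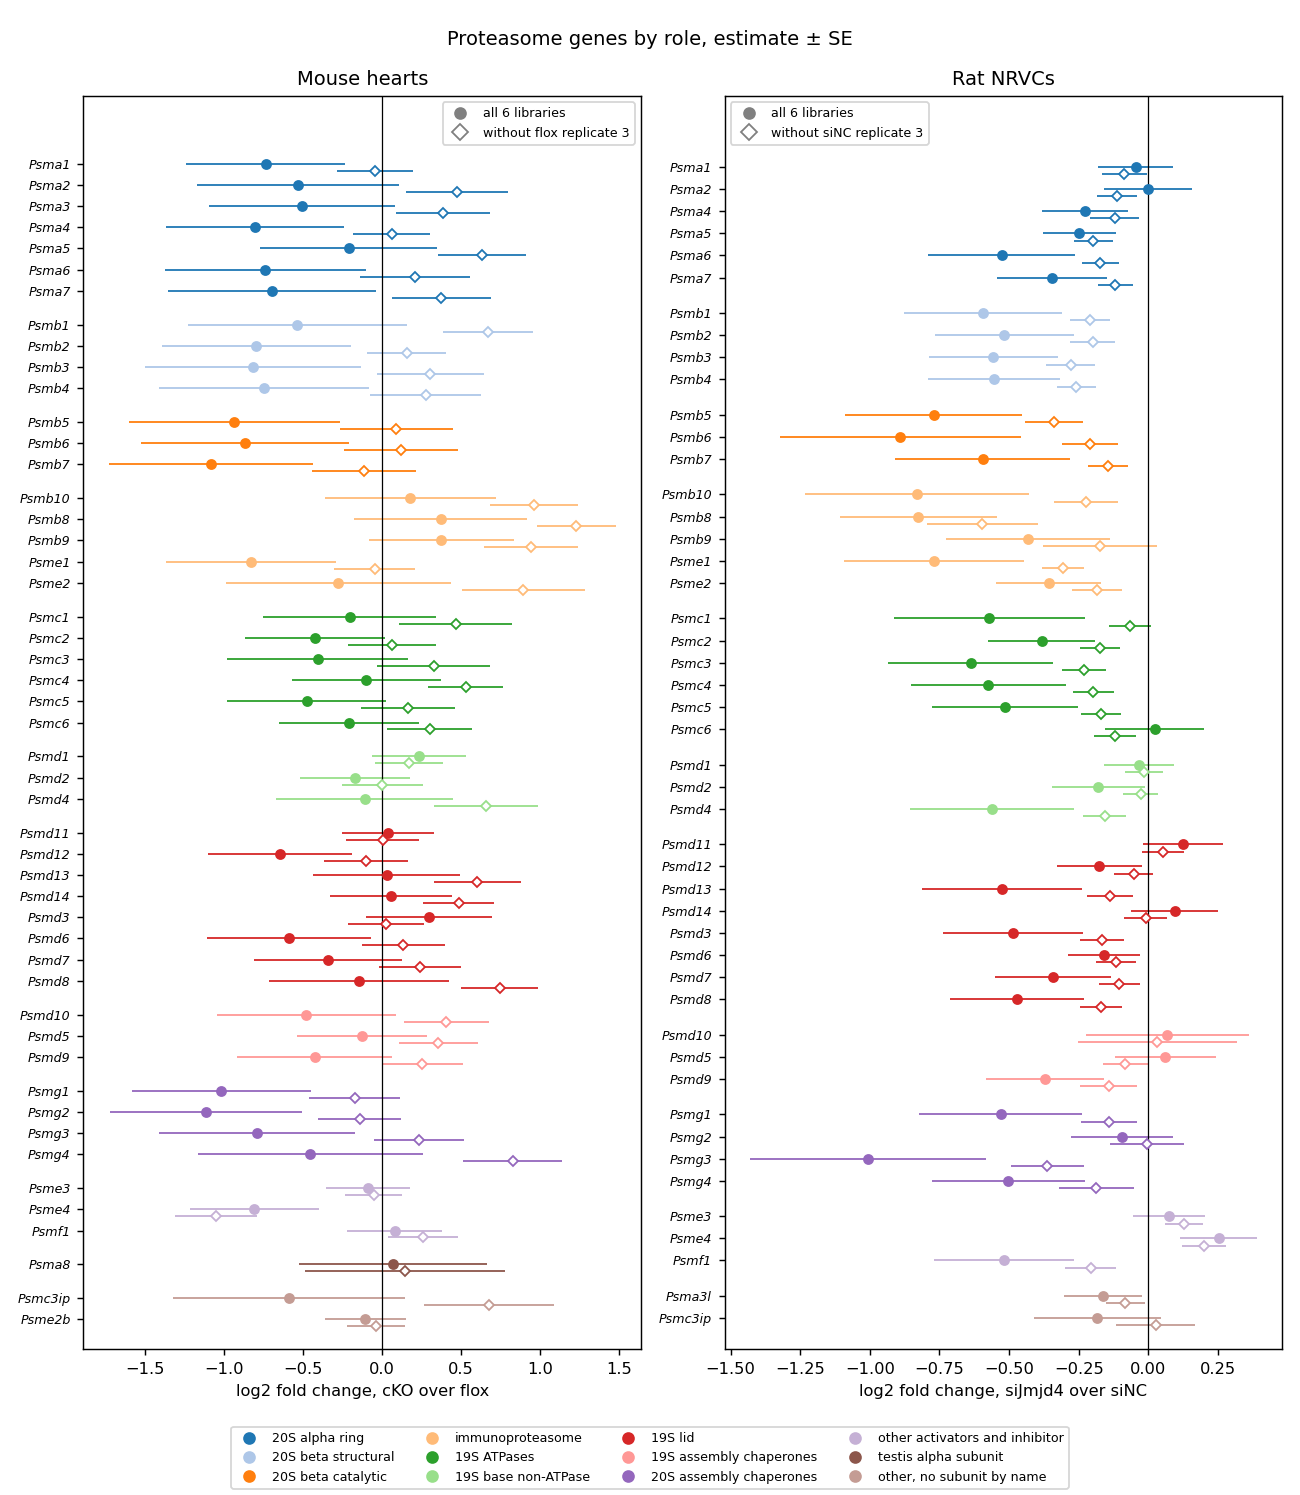
Log2 fold changes with standard errors for each tested proteasome gene, ordered and coloured by role, for cKO over flox hearts (left) and siJmjd4 over siNC NRVCs (right). Filled circles use all 6 libraries and open diamonds leave out control library 3; in hearts most circles lie left of 0 and most diamonds right of it, while in NRVCs most of both lie left of 0.

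Within the family, the excess of flox replicate 3 over flox replicates 1 and 2 depended on the gene. Its CPM was a median of 3.10 times theirs, with the lowest ratio, 0.474, for the lid subunit Psmd3 and the highest, 5.30, for the core assembly chaperone Psmg4. Across the 49 members this ratio fell with transcript length (Spearman rho -0.63, a description over genes that share the same libraries). The 16 members with the shortest transcripts, 514.5 to 1179.5 bases, had a median ratio of 3.88, and the 16 with the longest, 1636 to 6491 bases, one of 2.19. In siNC replicate 3 rho was -0.51 over 46 members. Small core subunits such as Psmb3 sat high in these libraries. The longest members sat high by less, with ratios of 0.474 to 4.90 in flox replicate 3. In siNC replicate 3 the 15 longest had a median ratio of 1.26. Psme4, the longest, lay below 1 in both. The part of transcript length in each fold change was not tested beyond a fit corrected for length. With that correction the heart median was -0.19 over members and -0.10 over all genes.

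**Figure D2:**
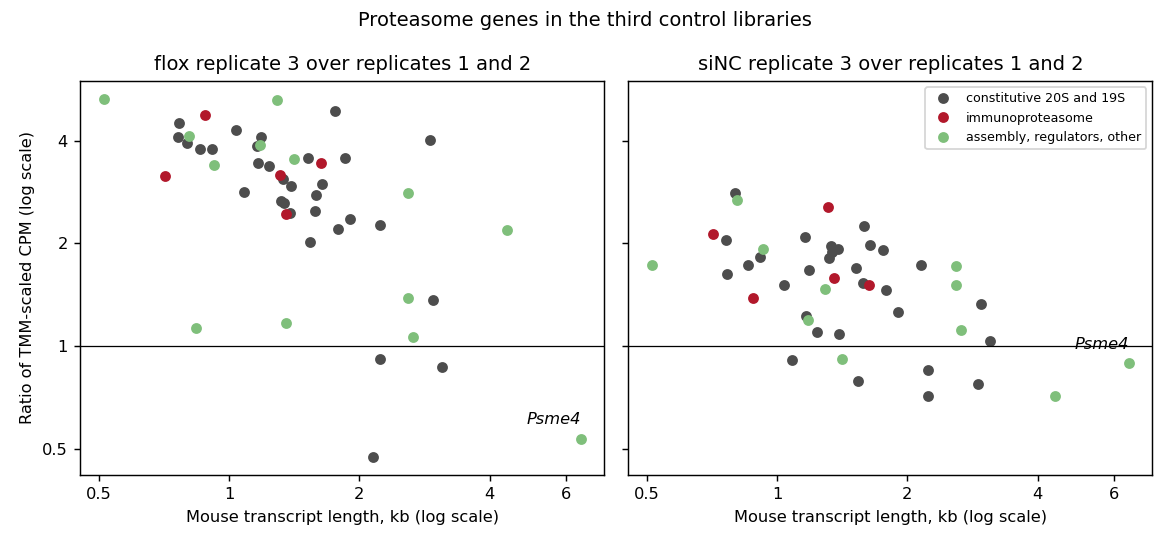
Ratio of TMM-scaled CPM in control library 3 to the mean of replicates 1 and 2 (vertical, log scale) against mouse transcript length in kb (horizontal, log scale), 1 point per tested proteasome gene. Most short members lie above a ratio of 1 in flox replicate 3 (left) and, less so, in siNC replicate 3 (right), and Psme4, the longest, lies below 1 in both.

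The catalytic immunoproteasome genes were higher in cKO hearts than in flox replicates 1 and 2. Psmb8 had 20.5, 26.6 and 17.1 CPM in cKO hearts, against 9.52, 8.77 and 31.5 CPM in flox hearts. Every cKO heart lay above the first 2 flox hearts and below flox replicate 3. With all libraries cKO over flox came to 0.37 ± 0.55 on the log2 scale (SE; adjusted p = 0.826), and without flox replicate 3 it was 1.23 ± 0.25 (adjusted p = 0.0342).

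Psmb9 had 11.95, 17.9 and 10.4 CPM in cKO hearts, against 7.86, 6.15 and 17.1 CPM in flox hearts. On that scale it came to 0.38 ± 0.46 (adjusted p = 0.778), and 0.94 ± 0.30 without flox replicate 3 (adjusted p = 0.113). Psmb9 overlaps the start of Tap1, a peptide transporter gene on the other strand, and reads of the pair cannot be told apart without the strand setting. Psmb10 had 34.3, 56.97 and 43.5 CPM in cKO hearts, against 26.5, 19.6 and 73.0 CPM in flox hearts. On that scale it came to 0.18 ± 0.54 (adjusted p = 0.925), and 0.96 ± 0.28 without flox replicate 3 (adjusted p = 0.0892). For all 3 genes every cKO heart lay above flox replicates 1 and 2, and flox replicate 3 lay above at least 2 cKO hearts. That order was not particular to them, as the constitutive subunits Psma2, Psma5, Psmb1 and Psmd8 had it too. The share of all genes with it is not given here. Psmb8 and Psmb7 also overlap other annotated genes, Gm20496 and Nek6 among them, and Psme1 overlaps Emc9.

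Of the cap genes, Psme2 shared this order of libraries and Psme1 did not. Psme1 had 43.5, 62.8 and 38.9 CPM in cKO hearts, against 52.8, 47.3 and 158 CPM in flox hearts, a log2 fold change of -0.83 ± 0.54 (adjusted p = 0.543) and of -0.05 ± 0.26 without flox replicate 3. Its cKO replicates 1 and 3 lay below every flox heart. Psme2 had 14.8, 33.6 and 15.6 CPM in cKO hearts, against 12.1, 10.9 and 54.7 CPM in flox hearts. Every cKO heart lay above flox replicates 1 and 2 and below flox replicate 3. Its value was -0.28 ± 0.71 (adjusted p = 0.912), and 0.90 ± 0.39 without flox replicate 3 (adjusted p = 0.23).

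**Figure D3:**
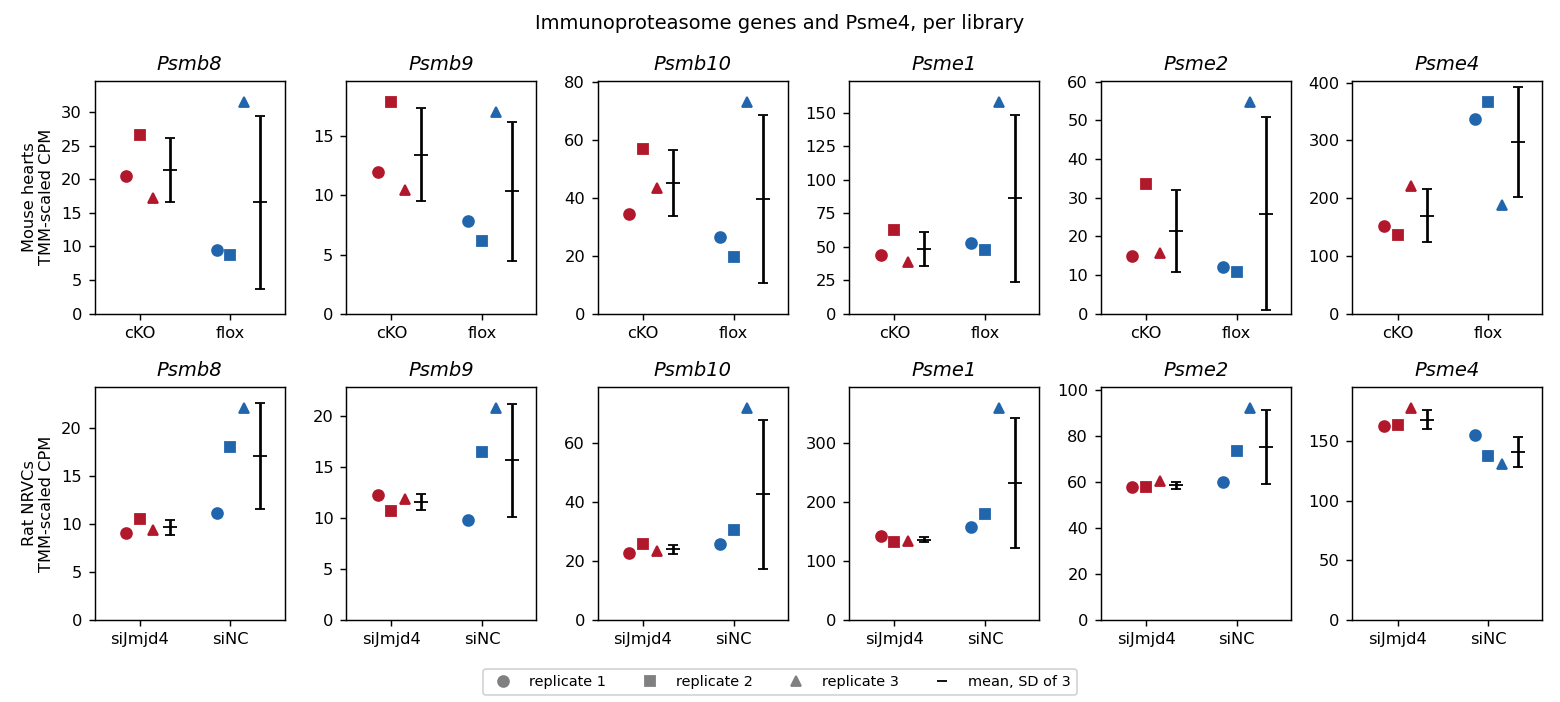
TMM-scaled CPM of Psmb8, Psmb9, Psmb10, Psme1, Psme2 and Psme4 in each library, with cKO left of flox hearts (top) and siJmjd4 left of siNC NRVCs (bottom); marker shapes give the replicate and black bars the mean and SD of 3 libraries. Flox replicate 3 (blue triangle) lies far above flox replicates 1 and 2 for the first 5 genes and below them for Psme4.

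A ratio of 2 genes within a library does not depend on how libraries are scaled, so each inducible subunit was set against the subunit it replaces. Counts of Psmb8 were 37.8%, 23.4% and 31.2% of those of Psmb5 in cKO hearts, against 13.7%, 12.4% and 10.99% in flox hearts. The mean was 30.8% ± 7.23 in cKO hearts and 12.4% ± 1.37 in flox hearts (SD, n = 3 each), a ratio of 2.49. Counts of Psmb9 were 22.9%, 16.1% and 19.2% of those of Psmb6 in cKO hearts, against 12.5%, 8.74% and 6.49% in flox hearts, a ratio of means of 2.104. Counts of Psmb10 were 41.0%, 36.4% and 53.2% of those of Psmb7 in cKO hearts, against 23.6%, 16.3% and 16.2% in flox hearts, a ratio of means of 2.33. In all 3 pairs every cKO heart, cKO replicate 2 included, lay above every flox heart, flox replicate 3 included. In each pair the inducible gene has the longer transcript (1628 against 760.5 bases, 1352 against 798, and 1311 against 1160), and cKO replicate 2 and flox replicate 3 gave the lowest ratio of their group in each. These ratios were not tested, since the genes were chosen with earlier results of these data known. The 3 pairs come from the same hearts, and the share of all gene pairs with such ratios is not given here.

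**Figure D4:**
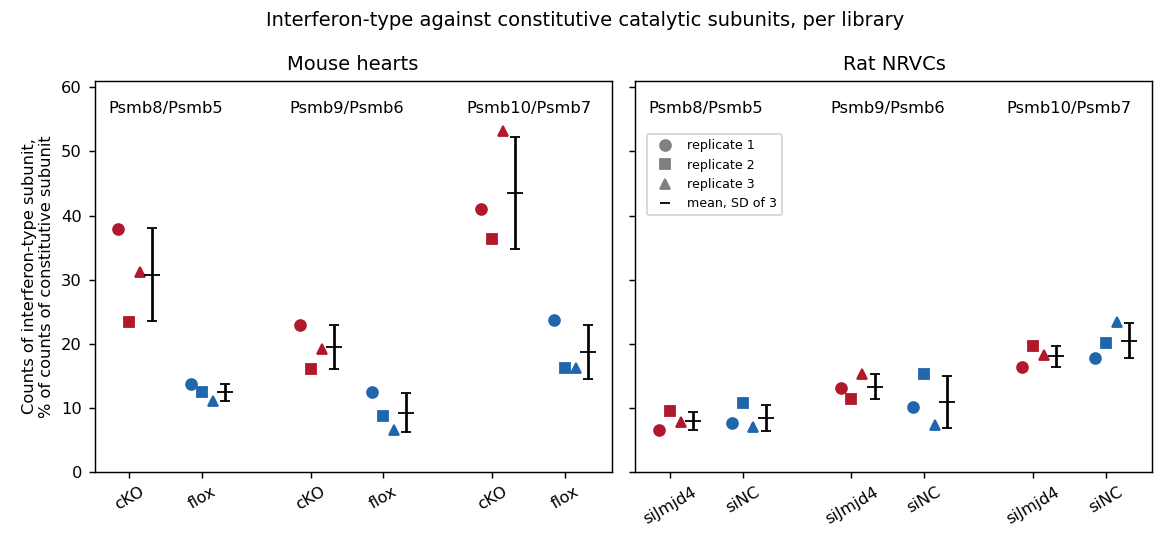
Counts of each interferon-inducible catalytic subunit as a percentage of the counts of its constitutive counterpart, per library, for hearts (left panel, cKO left of flox) and NRVCs (right panel, siJmjd4 left of siNC); shapes give the replicate and black bars the mean and SD. In hearts the cKO and flox points do not overlap for any of the 3 pairs, and in NRVCs they overlap for all 3.

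Set against the geometric mean of the constitutive subunits of the same library, 16 of 49 members had groups that did not overlap, 7 higher and 9 lower in cKO hearts, where 20% of all tested genes had such groups. Psmb8 was 0.323, 0.272 and 0.304 of that mean in cKO hearts, against 0.16, 0.143 and 0.193 in flox hearts. Psmb9 and Psmb10 were likewise higher in every cKO heart. So were 4 constitutive subunits, Psma5 among them, while 6 constitutive subunits were lower in every cKO heart. Psme1 was lower, at 0.682, 0.642 and 0.69 in cKO hearts, against 0.887, 0.771 and 0.968 in flox hearts. Psmb7 and the core assembly chaperones Psmg1 and Psmg2 were also lower in every cKO heart. On the CPM scale only Psme3, a nuclear cap subunit, had groups that did not overlap, where 26.1% of all tested genes did, and its levels were 45.3, 48.2 and 49.3 CPM in cKO hearts, against 49.4, 49.5 and 52.7 CPM in flox hearts.

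Markers of leukocytes, which express the immunoproteasome, summed higher in cKO hearts. The 10 genes came to between 293 and 386 CPM in cKO hearts, against between 136 and 148 CPM in flox hearts. None was called with all libraries and 5 were called higher without flox replicate 3. Adgre1, a macrophage marker, had 41.6, 43.8 and 66.5 CPM in cKO hearts, against 18.9, 18.2 and 17.8 CPM in flox hearts. Cd3e, a T cell marker, lay at 1.07 CPM or less in every heart. The fold change was above 0 for 8 of the 10, and below 0 for Cd79a, a B cell marker, and S100a8, a neutrophil marker. Cd79a had 0.346, 0.178 and 0.346 CPM in cKO hearts, against 0.814, 1.297 and 0.395 CPM in flox hearts (log2 fold change -1.53 ± 0.66, adjusted p = 0.342), and S100a8 lay at -0.53, and at 0.31 without flox replicate 3. Fibroblast markers also summed higher, to between 2194 and 4830 CPM in cKO hearts, against between 716 and 1118 CPM in flox hearts. The part of other cells in the immunoproteasome values was not tested, and in this bulk tissue more cells of a type and more RNA per cell cannot be told apart.

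Of 10 genes of antigen processing, 9 had values above 0 in cKO hearts and 0 were called, with a median log2 fold change of 0.37. Without flox replicate 3, B2m, the light chain of MHC class I, was called higher. Tap1 had 28.3, 19.1 and 17.7 CPM in cKO hearts, against 12.8, 9.70 and 5.03 CPM in flox hearts, groups that did not overlap (log2 fold change 1.24 ± 0.42, adjusted p = 0.237). The list of proteasome partners, among them ubiquitin genes, shuttle factors and the regulators Nfe2l1 and Nfe2l2, held 34 symbols. Some are older and newer symbols of the same gene, such as Ufd1l and Ufd1. In hearts 29 were in the table, 28 were tested, 0 were called and the median was -0.09. In NRVCs 29 of these partners were tested, with a median of -0.04, and 9 genes of antigen processing, with a median of -0.06, and 0 were called of either list.

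With all libraries the constitutive catalytic subunits had the lowest fold changes of the core, and without flox replicate 3 they lay close to 0. Psmb5 had 54.3, 114 and 55.0 CPM in cKO hearts, against 69.4, 70.5 and 286 CPM in flox hearts (log2 fold change -0.93 ± 0.67, adjusted p = 0.586). Psmb6 had 52.1, 111 and 54.3 CPM in cKO hearts, against 63.1, 70.3 and 263 CPM in flox hearts (-0.87 ± 0.66, adjusted p = 0.617). Psmb7 had 83.8, 156 and 81.8 CPM in cKO hearts, against 112, 121 and 451 CPM in flox hearts (-1.09 ± 0.65, adjusted p = 0.502). For all 3 genes cKO replicates 1 and 3 lay below every flox heart and cKO replicate 2 above the first 2 flox hearts. Their values without flox replicate 3 were 0.09 for Psmb5, 0.12 for Psmb6 and -0.11 for Psmb7, and none was called. Without both flox replicate 3 and cKO replicate 2, Psmb7 was called lower (-0.50, adjusted p = 0.0344) and Psmb5 and Psmb6 were not (-0.36 and -0.34, adjusted p = 0.0723 and 0.109).

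The 7 alpha subunits of the ring that gates the core all had values below 0, between -0.80 for Psma4 and -0.21 for Psma5, and without flox replicate 3 between -0.04 for Psma1 and 0.63 for Psma5. The 4 structural beta subunits ranged between -0.82 for Psmb3 and -0.53 for Psmb1, and without flox replicate 3 between 0.16 for Psmb2 and 0.67 for Psmb1. None of these 11 genes was called in either fit. In all 11 genes flox replicate 3 was highest and cKO replicate 2 next, while the order of the other libraries varied. Psma6 had 58.4, 108 and 50.2 CPM in cKO hearts, against 62.4, 62.7 and 236 CPM in flox hearts. Psma5 had 38.6, 58.0 and 33.7 CPM in cKO hearts, against 26.8, 29.3 and 94.8 CPM in flox hearts.

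The 6 ATPases of the 19S base, which unfold substrates, had values between -0.48 for Psmc5 and -0.10 for Psmc4, and without flox replicate 3 all 6 lay above 0, between 0.06 for Psmc2 and 0.53 for Psmc4. Psmd1 and Psmd2, the large scaffold subunits of the base, lay at 0.23 and -0.17, and the ubiquitin receptor Psmd4 at -0.11. These values without flox replicate 3 were 0.17 for Psmd1, 0.0023 for Psmd2 and 0.66 for Psmd4. The lid ranged between -0.64 for Psmd12 and 0.30 for Psmd3, with Psmd14, the enzyme that removes ubiquitin chains, at 0.06. Without flox replicate 3 it ranged between -0.10 for Psmd12 and 0.75 for Psmd8, with Psmd14 at 0.49 and Psmd3 at 0.03. Psmd8, a lid subunit, had 74.0, 107 and 77.3 CPM in cKO hearts, against 47.8, 55.0 and 182 CPM in flox hearts. Its fold change was -0.14 with all libraries, 0.75 without flox replicate 3 (adjusted p = 0.119) and 0.55 without both libraries (adjusted p = 0.032).

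The chaperones that assemble the 19S base, Psmd5, Psmd9 and Psmd10, had values between -0.48 and -0.13, and without flox replicate 3 all 3 lay above 0, between 0.26 for Psmd9 and 0.41 for Psmd10. The core chaperones Psmg1 and Psmg2, which work as a pair, had values of -1.02 ± 0.57 and -1.12 ± 0.61 (adjusted p = 0.471 and 0.458). Psmg2 had 13.4, 20.8 and 12.8 CPM in cKO hearts, against 17.0, 17.6 and 67.4 CPM in flox hearts, and without flox replicate 3 its value was -0.14 ± 0.26, beside -0.17 ± 0.29 for Psmg1. Over all 4 core chaperones, Psmg1 to Psmg4, the values lay between -1.12 and -0.45. Without flox replicate 3 they lay between -0.17 and 0.83, with 2 above 0 and 2 below. The inhibitor Psmf1 lay at 0.08 ± 0.30, and at 0.26 without flox replicate 3.

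Psme4, a large nuclear cap known in mouse testis for the breakdown of histones, was lower in cKO hearts than in flox replicates 1 and 2. It had 151, 137 and 221 CPM in cKO hearts, against 338, 366 and 189 CPM in flox hearts. Every cKO heart lay below flox replicates 1 and 2, and cKO replicate 3 lay above flox replicate 3. On the log2 scale cKO over flox came to -0.81 ± 0.41 (adjusted p = 0.417), -1.05 ± 0.26 without flox replicate 3 (adjusted p = 0.0592) and -0.93 without both libraries (adjusted p = 0.0252). Its transcript is the longest of the members at 6491 bases, and with the correction for length the value was -1.29 ± 0.37 (adjusted p = 0.089).

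No proteasome gene was called in siJmjd4 NRVCs against siNC NRVCs, among 47 tested, where 0.00645% of 15497 genes were called higher and 0% lower (edgeR quasi-likelihood test). Of these, 2 members, Psmb8 and Psmb5, had an unadjusted p under 0.05 (0.0239 and 0.0483), of 1350 such genes in all, and DESeq2's Wald test called 0. The median log2 fold change was -0.43 over members, with 7 values above 0 and 40 below, beside 0.01 over all genes. Without siNC replicate 3 it was -0.15 with 42 of 47 values below 0, and 0 members were called, where 0.487% of genes were called higher and 0.0823% lower. Without siNC replicate 3 and siJmjd4 replicate 1, Psmb3, Psmb4, Psmb5, Psmc3, Psme1 and Psmg3 were called lower and 0 higher, where 10.6% of genes were called higher and 5.18% lower.

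Groups did not overlap for 25 of 47 members in NRVC CPM, 1 of them higher, where 40.2% of all tested genes had such groups. Relative to the constitutive subunits they did not overlap for 14 of 47, where 41.8% of genes did. Psmb5 had 138, 112 and 120 CPM with siJmjd4, against 145, 168 and 319 CPM with siNC (log2 fold change -0.77 ± 0.32, adjusted p = 0.379). Every siJmjd4 library lay below every siNC library, by a narrow margin for siNC replicate 1. The 4 structural beta subunits had values between -0.59 for Psmb1 and -0.52 for Psmb2, the 6 alpha subunits between -0.53 for Psma6 and -0.0013 for Psma2, the ATPases between -0.64 for Psmc3 and 0.02 for Psmc6, and the lid between -0.53 for Psmd13 and 0.12 for Psmd11. Psmg3 had 19.7, 16.8 and 15.4 CPM with siJmjd4, against 21.8, 22.8 and 59.8 CPM with siNC, and with all libraries the lowest value of the family, -1.01 ± 0.42 (adjusted p = 0.379). Without siNC replicate 3 the values were -0.36 for Psmg3 and -0.34 for Psmb5, and Psmb8 had the lowest, at -0.60. In that fit the structural beta subunits lay between -0.28 for Psmb3 and -0.20 for Psmb2, the alpha subunits between -0.20 for Psma5 and -0.09 for Psma1, the ATPases between -0.23 for Psmc3 and -0.07 for Psmc1, and the lid between -0.17 for Psmd8 and 0.05 for Psmd11.

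The immunoproteasome genes of NRVCs all had values below 0, as did 27 of the 30 constitutive subunits. Psmb9 lay at -0.43 ± 0.29, and at -0.17 without siNC replicate 3. Psme2 lay at -0.36 ± 0.19, and at -0.18 without siNC replicate 3. Psmb8 had 9.01, 10.6 and 9.33 CPM with siJmjd4, against 11.1, 18.0 and 22.0 CPM with siNC (-0.83 ± 0.28, adjusted p = 0.379). Psmb10 had 22.7, 25.7 and 23.3 CPM with siJmjd4, against 25.6, 30.3 and 71.6 CPM with siNC (-0.83 ± 0.40, adjusted p = 0.379). Psme1 had 142, 133 and 134 CPM with siJmjd4, against 158, 179 and 359 CPM with siNC (-0.77 ± 0.32, adjusted p = 0.379). Without siNC replicate 3 the 5 values stayed below 0 and none was called, at -0.60 ± 0.20 for Psmb8 (adjusted p = 0.123), -0.22 ± 0.11 for Psmb10 (adjusted p = 0.268) and -0.31 ± 0.08 for Psme1 (adjusted p = 0.0745). The ratios to the constitutive subunits overlapped between the groups. Counts of Psmb8 were 6.53%, 9.45% and 7.77% of those of Psmb5 with siJmjd4, against 7.68%, 10.8% and 6.91% with siNC. The ratio of means was 0.936 for this pair, 1.22 for Psmb9 to Psmb6 and 0.883 for Psmb10 to Psmb7. The leukocyte markers, 7 of which were tested, summed to between 149 and 168 CPM with siJmjd4, against between 147 and 240 CPM with siNC.

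Psme4 was the 1 member higher in every siJmjd4 library, with 163, 164 and 178 CPM, against 155, 138 and 131 CPM with siNC (0.25 ± 0.14, adjusted p = 0.379). With the correction for length, made with mouse lengths, the value was -0.39 ± 0.21, of opposite sign.

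The difference between the heart and the NRVC responses was tested in 1 model of all 12 libraries. With all libraries 0 of 47 members were called, where 1.34% of 13482 genes were called higher in the heart response and 0.341% lower. Psme4 alone had an unadjusted p under 0.05 (heart minus NRVC log2 fold change -1.07 ± 0.43, adjusted p = 0.257). Without flox replicate 3 and siNC replicate 3, Psmb8 (1.82 ± 0.34, adjusted p = 0.0096), Psmb10 (1.18 ± 0.30, adjusted p = 0.0337) and Psmd8 (0.91 ± 0.24, adjusted p = 0.0376) were called higher in the heart response and Psme4 lower (-1.26 ± 0.27, adjusted p = 0.018), where 7.16% of genes were called higher and 5.68% lower. The systems differ in species, age, tissue and manner of Jmjd4 loss, and these cannot be told apart.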

How the data were processed

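For each species the authors deposited a table of unnormalized whole-number counts by gene symbol. Per the submitters' processing notes, which state no roles, the tools were HISAT2 2.1.0, StringTie 1.3.4 and edgeR 3.20.9 with builds rn6 and mm10. Annotation, strand setting and counting rules were not given in the sources used here. RNA was extracted with TRIzol, per the labels' protocols. Groups come from the labels and columns from the names the labels give.

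Genes were filtered with filterByExpr and libraries scaled by TMM, the trimmed mean of M values. edgeR's robust quasi-likelihood test (edgeR 4.0.16, R 4.3.3) was fitted to all genes of each system with 1 term, the group. Two-sided p-values were adjusted by Benjamini-Hochberg, and genes under 0.05 were called. CPM use the TMM-scaled library size. Standard errors come from the F statistic. The difference of the systems was fitted over genes paired by symbol. Alternatives were DESeq2's size factors and Wald test (DESeq2 1.42.0), total counts alone, a filter at a mean of 5 CPM, no filter, the replicate block, a correction for transcript length (lowess of span 0.3, prior count 2), and leaving out libraries. Levels relative to the constitutive subunits were added after the data were seen. Lengths are medians over GENCODE M21 transcripts on GRCm38, the assembly mm10 names, and 80.0% of tested mouse and 83.9% of tested rat genes had one. Promoters come from RefSeq.

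The members and all gene lists were chosen with earlier results of these data known, and no list was tested as a set. The rule names the immunoproteasome and constitutive catalytic genes, called members, the 3 members of each other role with the smallest p, called genes and up to 4 others of each other list, and Jmjd4. The text gives a selection of the listed genes, and other members are named as ends of a range, or for their role, after their values were seen. Psma8 was listed with the alpha ring and set apart as a testis subunit. The code was tested on simulated counts.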

Additional observations from a re-analysis of the deposited data

How the results depend on the processing

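The count of proteasome genes called stayed at 0 in both directions and both systems under total counts alone, no filter, a filter at a mean of 5 CPM, the size factors and Wald test of DESeq2, the correction for transcript length and the replicate block. Leaving out flox replicate 3 and cKO replicate 2 gave 3 higher and 2 lower in hearts, and leaving out single heart libraries gave 0 to 1 higher, with the 1 call, Psmb8, made without flox replicate 3. Leaving out siNC replicate 3 and siJmjd4 replicate 1 gave 6 lower in NRVCs. For the difference between the systems, leaving out flox replicate 3 and siNC replicate 3 gave 3 higher and 1 lower. Total counts alone gave 1 higher, Psmb8, and the share of all genes called in that fit is not given here. The constitutive median in hearts was 0.40 with total counts alone, a scale on which the median of all genes was 0.54, and -0.79 to 0.24 when single libraries were left out. The immunoproteasome median in NRVCs was -0.18 with the correction for length. When single heart libraries were left out, the ratio of means of Psmb8 to Psmb5 ranged from 2.20 to 2.79. That of Psmb9 to Psmb6 ranged from 1.83 to 2.55, and that of Psmb10 to Psmb7 from 2.07 to 2.68. In NRVCs the ranges were 0.845 to 1.08, 1.045 to 1.53 and 0.83 to 0.95, in the same order of pairs.

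Of 979 values, under an alternative, of the members picked by the rule for named genes, 77 had the sign opposite to that with all libraries and TMM; the cause was not tested. None of these values was called in either setting. As log2 fold changes in hearts, total counts alone gave Psma1 0.10, Psma4 0.098, Psma6 0.17, Psmb2 0.13, Psmb3 0.15, Psmb4 0.19, Psmb6 0.057, Psmc2 0.33, Psmc3 0.43, Psmc3ip 0.45, Psmc5 0.34, Psmd10 0.43, Psmd12 0.14, Psmd2 0.46, Psmd4 0.74, Psmd5 0.64, Psmd6 0.26, Psmd9 0.41, Psme1 0.041, Psme2 0.70, Psme2b 0.49, Psme3 0.50, Psmg3 0.16. Leaving out flox replicate 3 and cKO replicate 2 gave Psmc3ip 0.69, Psmd10 0.22, Psmd3 -0.17, Psmd4 0.29, Psmd5 0.23, Psmd9 0.012, Psme2 0.40. The correction for length gave Psmd4 0.19, Psme2 0.36, Psme2b 0.15, Psmf1 -0.095. Over the fits that left out 1 heart library, the ranges were Psma4 -1.08 to 0.061, Psma6 -1.14 to 0.21, Psma8 -0.16 to 0.27, Psmb10 -0.14 to 0.96, Psmb2 -1.11 to 0.16, Psmb3 -1.18 to 0.31, Psmb4 -1.15 to 0.28, Psmb5 -1.37 to 0.090, Psmb6 -1.30 to 0.12, Psmc2 -0.69 to 0.064, Psmc3 -0.81 to 0.33, Psmc3ip -0.997 to 0.68, Psmc5 -0.78 to 0.16, Psmd10 -0.81 to 0.41, Psmd2 -0.35 to 0.0023, Psmd4 -0.46 to 0.66, Psmd5 -0.39 to 0.36, Psmd6 -0.85 to 0.14, Psmd9 -0.66 to 0.26, Psme2 -0.75 to 0.90, Psmf1 -0.038 to 0.26, Psmg3 -1.12 to 0.23. In NRVCs the correction for length gave Psma5 0.071, Psma7 0.067, Psmc3ip 0.15, Psmd5 -0.28, Psme2 0.088, Psme4 -0.39, Psmg4 0.12, total counts alone gave Psmd1 0.061, and leaving out siNC replicate 3 and siJmjd4 replicate 1 gave Psmd5 -0.12. Over the fits that left out 1 NRVC library, the ranges were Psmc3ip -0.30 to 0.026, Psmd10 -0.074 to 0.28, Psmd5 -0.083 to 0.16.

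The replicate numbers share no stated source, and deviations of same-numbered libraries correlated at 0.357, -0.479 and -0.331 in hearts and at -0.142, -0.0188 and -0.15 in NRVCs. The replicate block changed no count of calls. With the block the constitutive median was -0.24 in hearts and -0.43 in NRVCs, and the values of Psma5 0.037, Psmc4 0.050, Psmd4 0.072, Psmd8 0.139, Psme2 0.067 and Psmg4 0.064 in hearts, and of Psma2 0.0091 in NRVCs, turned sign.

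With 3 libraries a group and 1 control library of each system apart from the rest, the direction of most proteasome genes in hearts rests on whether flox replicate 3 is used. Transcript lengths are those of mouse genes, also for rat genes of the same symbol. Another annotated gene overlaps 24 mouse members, and reads of overlapping genes on opposite strands could not be assigned by strand. For Psmb5, Psmc5 and Psmd12 the only overlapping gene lies on the same strand. Depth limits the rare members most, since each constitutive subunit averaged at least 37.6 CPM in either heart group while Psma8 stayed under 1.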
